A study of Mus musculus with 2 samples.

Results

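The miRNAs mmu-miR-23a-3p, mmu-miR-27a-3p and mmu-miR-24-3p of the miR-23a cluster, and mmu-miR-23b-3p, mmu-miR-27b-3p and again mmu-miR-24-3p of the miR-23b cluster, were examined in plasma extracellular vesicles (EVs). The 5 miRNAs were chosen by name as the guide arms of the hairpins of both clusters, and they were found on 5 of the 1900 miRNA spots of the array. Every value below comes from 2 arrays. The first held RNA of plasma EVs pooled from 5 male C57BL/6 mice, a strain that recovers its hindlimb blood flow after vessel ligation, and the second RNA of EVs pooled from 5 male BALB/c mice, which do not show this recovery. All mice were 8 weeks old, had the left femoral artery and vein ligated and cut, and were bled 24 h later, so that no array of mice without ligation was analysed here. Since each strain has 1 array of 1 pool, the values carry no SD and no p-value, and the spread between mice was not measured. The RNA was labelled with Cy5 and bound to a 3D-Gene miRNA oligo chip, which holds 1 spot for each of these miRNAs and reads fluorescence in arbitrary intensity units.

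Each of the 2 clusters consists of 3 hairpins that lie side by side in the genome and are known to be made from a common primary transcript. In endothelial cells, the miR-23 and miR-27 families are known to promote vessel sprouting in mice by lowering the inhibitors Sprouty2 and Semaphorin 6A, while miR-24 is known to repress the transcription factor GATA2 and the kinase PAK4. The miR-23a cluster is also known from blood cell development, and miR-27 from the control of fat cell formation through PPARG.

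The mature sequences are shown because the a and b forms are near copies of each other, which bears on what 1 probe can tell apart. They were taken from RefSeq (mouse build GRCm38.p6), which matched 4 of the 5 miRNAs, and are written 5′ to 3′ with the seed, bases 2 to 8, in capitals. No sequence was matched for miR-23b-3p, so the miR-23 forms were not compared. Positions are counted from 1 at the 5′ end.
miR-23a-3p: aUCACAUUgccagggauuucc
miR-27a-3p: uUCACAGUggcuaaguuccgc
miR-27b-3p: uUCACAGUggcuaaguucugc
miR-24-3p: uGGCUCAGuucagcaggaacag
miR-27a-3p and miR-27b-3p share the seed UCACAGU and differ by 1 base, C19U (miR-27a-3p first). miR-23a-3p shares with miR-27a-3p the run UCACA, which starts at base 2 of each, and its seed goes on differently. The seed of miR-24-3p, GGCUCAG, is unlike both. Outside the 5 miRNAs, no mature mouse miRNA in the RefSeq table carries the seed of miR-23a-3p or of the miR-27 forms. That of miR-24-3p is shared by 4 others on the array (miR-5124b, miR-6369, miR-6410 and miR-6413), whose spots lay between 96.4 and 105 on both arrays, below the detection thresholds.

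In GRCm38.p6, the miR-23a cluster spans 404 bases on the plus strand of chromosome 8 (chr8:84208518-84208921), outside the bounds of any protein-coding gene. miR-23a-3p lies at chr8:84208563-84208583, miR-27a-3p at chr8:84208727-84208747, and the copy of miR-24-3p from the hairpin Mir24-2 at chr8:84208875-84208896. The miR-23b cluster spans 792 bases on the plus strand of chromosome 13 (chr13:63300484-63301275), within the bounds of Aopep, which encodes an aminopeptidase. miR-27b-3p lies at chr13:63300760-63300780, and the copy of miR-24-3p from Mir24-1 at chr13:63301251-63301272. The 2 copies of miR-24-3p are identical in sequence, so that its spot measures both clusters together. The hairpins of miR-3074 lie over the hairpins of miR-24 on the minus strand at both places. The 3 spots of miR-3074 arms read 96.0 to 103 and were not detected on either array.

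All 5 miRNAs were detected in the EVs of both strains. On the whole array, 33.6% of 1900 miRNAs were detected in the C57BL/6 EVs, 9.84% in the BALB/c EVs and 9.37% (178 miRNAs) in both. A miRNA was called detected where its spot lay more than 2 SD above the mean of the empty BLANK spots, that is above 106 on the C57BL/6 array and above 111 on the BALB/c array. The spot of mmu-miR-23a-3p read 436 in C57BL/6 and 286 in BALB/c. That of mmu-miR-23b-3p read 377 and 268 in turn. mmu-miR-24-3p read 418 in C57BL/6, close to the miR-23 spots, but 170 in BALB/c, well below them. mmu-miR-27a-3p read 221 and 146. mmu-miR-27b-3p, the dimmest of the 5, read 160 and 133, which was 17.1 SD and 7.53 SD above the BLANK mean. Each of the 5 spots was thus brighter on the C57BL/6 array.

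By intensity among all 1900 miRNA spots, the miR-23 forms ranked higher on the BALB/c array, although their spots were dimmer there. miR-23a-3p ranked 47 in C57BL/6 and 20 in BALB/c, and miR-23b-3p ranked 56 and 22. miR-27a-3p went from rank 100 to 58 and miR-27b-3p from 158 to 73. miR-24-3p changed least in place, with ranks 49 and 40. Of the summed signal of all detected miRNAs, the 5 together made up 0.757% in C57BL/6 and 2.90% in BALB/c. Ranks and shares need no scaling between the arrays, but they also move with the other miRNAs. A rise in share was not particular to the 5. It was also seen for the 118 other miRNAs with a miRBase accession no later than theirs, a group formed after the values were seen. Their signals, undetected spots included, summed to 4417 in C57BL/6 and 1673 in BALB/c. The summed signal of all detected miRNAs was 148138 and 16918 in turn.

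The opposite arms of the same hairpins, which are usually the less stable strand, gave almost no signal. The 6 spots for miR-23a-5p, miR-27a-5p, miR-24-2-5p, miR-23b-5p, miR-27b-5p and miR-24-1-5p read 93.1 to 108 in C57BL/6 and 95.9 to 105 in BALB/c. Only miR-23a-5p passed the C57BL/6 threshold, at 108 and 2.66 SD above the BLANK mean, and none passed that of BALB/c. On both arrays every guide arm was brighter than every opposite arm. The arms that are particular to 1 copy of the miR-24 hairpin, miR-24-1-5p and miR-24-2-5p, were not detected on either array, and so did not show from which cluster the miR-24-3p signal came.

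**Figure D1:**
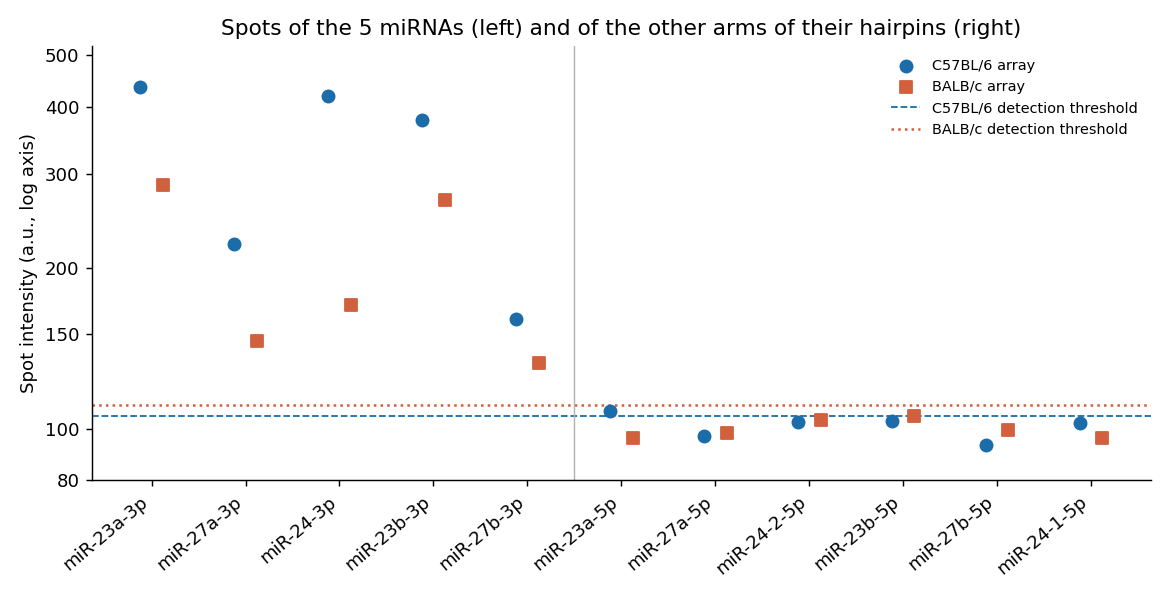
Spot intensity (arbitrary units, log axis, background not subtracted) of the 5 guide arms on the left and of the 6 opposite arms on the right, with circles for the C57BL/6 array and squares for the BALB/c array (1 array each). The 5 guide arms lie above both detection thresholds (dashed and dotted lines) on both arrays, while only miR-23a-5p among the opposite arms passes the C57BL/6 threshold.

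After subtraction of the BLANK mean, the signal of miR-24-3p was 4.73-fold higher in the C57BL/6 EVs than in the BALB/c EVs, and those of the 4 other miRNAs were higher by a smaller factor. These unscaled ratios were 2.85-fold for miR-27a-3p, 2.04-fold for miR-27b-3p, 1.84-fold for miR-23a-3p and 1.69-fold for miR-23b-3p. For a range, both signals were shifted in opposite directions by 2 SD of the BLANK spots. It ran from 4.13-fold to 5.49-fold for miR-24-3p and from 1.57-fold to 1.82-fold for miR-23b-3p. Nearly every miRNA was brighter on the C57BL/6 array: the signal was higher there for 93.8% of the 178 miRNAs detected in both strains, and their median ratio was 3.93-fold. The spike control spots, of which 8 per control were read, were 1.71-fold and 1.91-fold brighter there as well. The ratio of miR-24-3p therefore lay above this median and the other 4 below it, with both miR-23 forms near the ratio of the spikes. More vesicles in the plasma and more RNA per vesicle cannot be told apart here, and neither can strain and array.

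The median of the 178 shared miRNAs was then set to 0, which removes any factor common to a whole array. On this log2 scale, miR-23b-3p was at -1.22 (range -1.32 to -1.11) and miR-23a-3p at -1.09 (range -1.19 to -0.999), both past 2-fold below the median. With the local background of each spot subtracted in place of the BLANK mean, miR-23a-3p was at -0.60 and no longer past 2-fold, while miR-23b-3p was at -1.48. miR-27b-3p followed at -0.95 (range -1.46 to -0.34) and miR-27a-3p at -0.46 (range -0.80 to -0.08). miR-24-3p was the only 1 of the 5 above the median, at 0.27 (range 0.07 to 0.48). The median of the 5 was -0.95. Among all 178 shared miRNAs, whose median is 0 by construction, 21.3% were more than 2-fold below the median and 32.6% more than 2-fold above it. The 2 miR-23 forms were thus among the 38 miRNAs of the lower tail. This tail also held 15 of the 47 other shared miRNAs of early accession. Counted from the lowest, miR-23b-3p stood at place 33, miR-23a-3p at 36, miR-27b-3p at 40, miR-27a-3p at 72 and miR-24-3p at 98. The place of miR-23b-3p depended on the background: it was 14 of 164 with the local background subtracted, and 2 of 178 with the normexp correction and quantile normalization, where 4.49% of the shared miRNAs were more than 2-fold below.

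These ranges hold only the noise of empty spots. The 8 spots of a spike control had a coefficient of variation (CV) of 3.28% to 6.11%. With the higher CV of each array added to the noise of the signals, the ranges of miR-27a-3p (-0.96 to 0.08) and miR-24-3p (-0.15 to 0.70) held the median of the shared miRNAs. Those of miR-23a-3p (-1.46 to -0.73), miR-23b-3p (-1.58 to -0.85) and miR-27b-3p (-1.58 to -0.22) did not. With other corrections of the background, only the miR-23 forms stayed clearly below the median. miR-27b-3p came to it, at -0.075 with the local background subtracted and -0.015 with the normexp correction. miR-27a-3p was at 0.0088 and -0.17 in turn, and miR-24-3p at 0.38 and -0.12. The median of the 5 was then -0.075 and -0.17 in turn. The sign of the ratio itself followed the scaling. With the 75th percentile of the shared miRNAs made equal on both arrays, a division of every ratio by 5.32, all 5 log2 ratios were below 0, from -1.66 for miR-23b-3p to -0.17 for miR-24-3p. On this scale, 58.4% of the 178 shared miRNAs were below 0 as well. With the spike controls as the scale the ratios of the 5 ran from -0.10 to 1.39, and in the authors' table from 1.02 to 2.50.

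**Figure D2:**
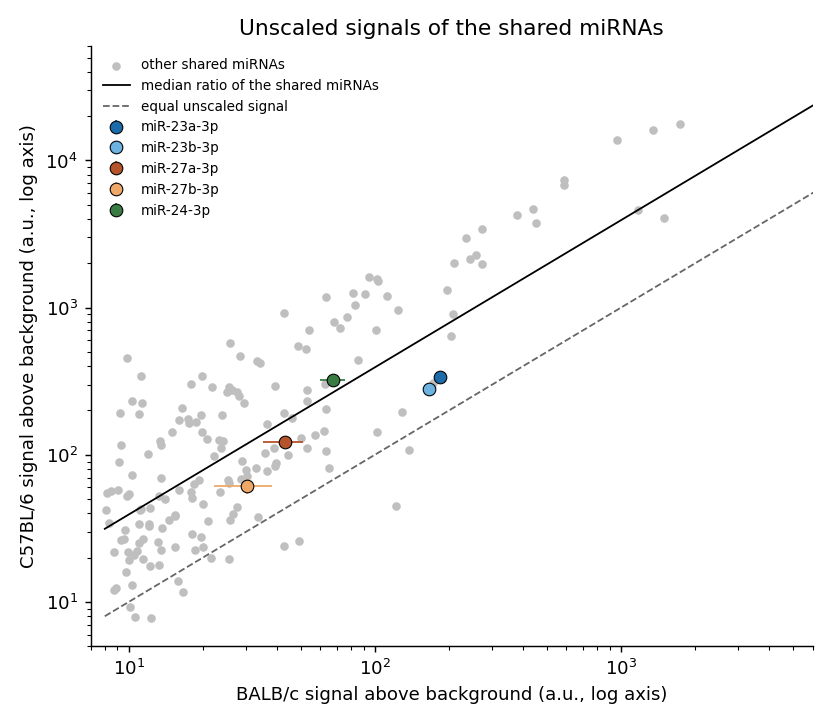
Signal above the BLANK mean of the 178 miRNAs detected on both arrays, BALB/c on the x axis and C57BL/6 on the y axis (arbitrary units, log axes, not scaled), with bars of 2 SD of the BLANK spots on the 5 miRNAs. Both miR-23 forms lie above the dashed line of equal signal, at 1.84-fold (miR-23a-3p) and 1.69-fold (miR-23b-3p). They lie below the solid line of the median ratio (3.93-fold), and miR-24-3p lies just above that line.

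The same ratios were also ranked among bright miRNAs only, which is no separate support. Of 31 shared miRNAs with a BALB/c signal of at least 100, 10 lay below the median of the shared miRNAs. This minimum was chosen after the values were seen, on the array where the miR-23 forms ranked higher. Among the 31, miR-23b-3p was the 5th from the lowest ratio and miR-23a-3p the 7th. Below them were miR-6916-5p, miR-6935-5p, miR-133a-3p and miR-133b-3p, of which the miR-133 forms are abundant in muscle, and miR-22-3p lay between them at -1.13. The miRNAs with ratios nearest to those of the 5 were also looked up, on 1 ratio from 2 arrays. They were miR-22-3p, miR-148a-3p and miR-378b for miR-23a-3p, and miR-140-3p, miR-223-3p and miR-126a-5p for miR-23b-3p. For miR-27a-3p they were miR-342-3p, miR-93-5p and miR-142a-5p, and for miR-27b-3p miR-10a-5p, miR-760-5p and miR-30c-5p. Those nearest to miR-24-3p were miR-3473e, miR-6931-5p and miR-5116. Each named miRNA lay within 0.08 of the ratio of its partner. In BALB/c these miRNAs lay from 2.32 SD (miR-342-3p) to 43.1 SD (miR-22-3p) above the BLANK mean. For those near the detection threshold of 2 SD, such closeness is well within the noise of the spots. Among the 47 other shared miRNAs whose miRBase accession is no later than those of the 5, a group formed after the values were seen, the median was -0.71 and 43 lay below 0. Of these 47, 33 had a higher ratio than miR-23a-3p and only 3 a higher ratio than miR-24-3p.

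With the BLANK mean subtracted, the a and b forms of a family did not differ beyond the noise of the spots, but for miR-23 this depended on the background correction. For a pair of miRNAs, the difference of their log2 ratios is free of any scaling by 1 factor per array. The normexp correction, with its offset of 50 and quantile normalization, is no such factor. The difference is free of how well each probe binds only if each probe binds its own miRNA alone. The ratio of miR-23a-3p was 0.12 above that of miR-23b-3p (range -0.08 to 0.33). The quotient of their signals was 1.21 in C57BL/6 and 1.11 in BALB/c. miR-27a-3p was 0.48 above miR-27b-3p (range -0.46 to 1.38), with quotients of 1.99 and 1.42. The quotients themselves also depend on the probes and do not compare amounts. How far the probe for miR-27a-3p also bound miR-27b-3p, which differs by C19U, was not tested. Nor was binding to the other form tested for the probes of miR-23a-3p and miR-23b-3p. Both ranges hold 0, and the range of the miR-27 pair still allows a difference of more than 2-fold. The miR-23 pair differed by 0.44 with the normexp correction and quantile normalization, outside its range, and by 0.88 with the local background subtracted, which also passes the upper end of 0.86 reached with the CV of the spike spots added. The miR-27 pair differed by -0.15 with the normexp correction.

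miR-24-3p did not move with the miR-23 forms of its clusters. The signal of miR-24-3p was 0.948 times that of miR-23a-3p in C57BL/6 and 0.369 times in BALB/c, so that the ratio of miR-24-3p was 2.57-fold higher, or 1.36 on the log2 scale (range 1.07 to 1.67). Against miR-23b-3p, the quotient was 1.15 in C57BL/6 and 0.409 in BALB/c, a difference of 1.49 (range 1.18 to 1.81). miR-24-3p was also above miR-27b-3p by 1.21 (range 0.41 to 1.95) and above miR-27a-3p by 0.73 (range 0.16 to 1.28). Between the miR-23 and miR-27 families, miR-23a-3p was below miR-27a-3p by a difference of -0.63 (range -1.11 to -0.20). miR-23b-3p and miR-27b-3p differed by -0.27 (range -0.98 to 0.36). They differed by -1.41 with the local background subtracted and by -1.67 with the normexp correction, both past 2-fold and beyond that range. The range itself was formed with the BLANK mean subtracted.

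Of all 10 pairs of the 5 miRNAs, 4 had a range that held 0 with the BLANK mean subtracted, and with the CV of the spike spots added 7 did. The 3 pairs that remained apart were those of miR-24-3p with miR-23a-3p (range 0.58 to 2.16), with miR-23b-3p (0.70 to 2.29) and with miR-27b-3p (0.08 to 2.28). In the order of the ratios, from miR-23b-3p over miR-23a-3p and miR-27b-3p to miR-27a-3p and miR-24-3p, no neighbours differed beyond this wider range. With the local background subtracted, the differences of miR-24-3p from miR-23a-3p and miR-23b-3p were 0.99 and 1.86. With the normexp correction and quantile normalization, the difference from miR-27b-3p turned to -0.10. The surroundings of these spots were bright: 318 around the spot of miR-24-3p at 418, and 249 around that of miR-23a-3p at 436, on the C57BL/6 array.

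**Figure D3:**
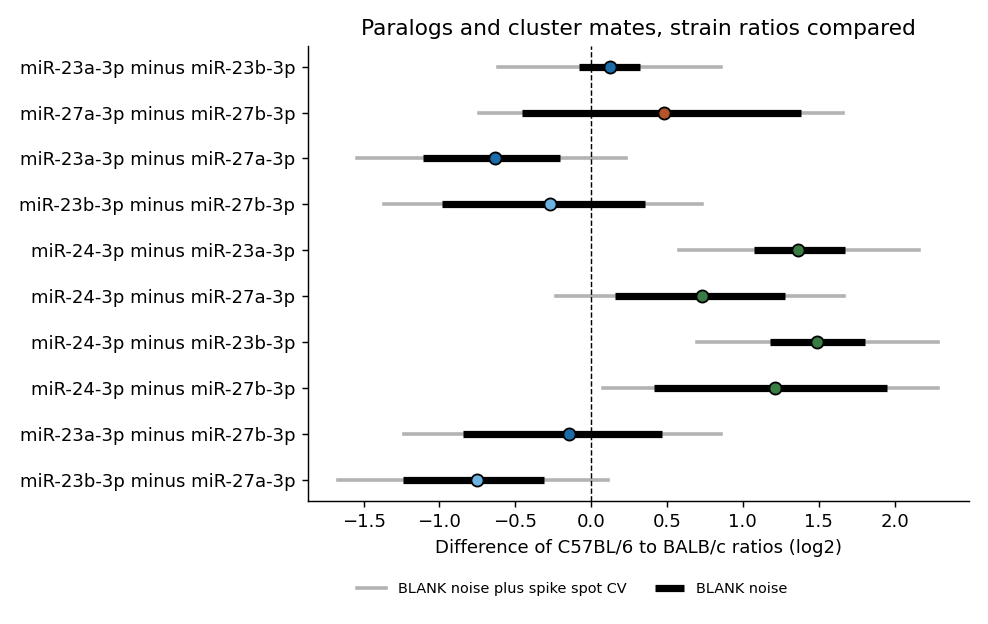
Difference of the C57BL/6 to BALB/c log2 ratios for each of the 10 pairs of the 5 miRNAs (points), with the range from 2 SD of the BLANK spots (black bars) and the range that adds the CV of the spike spots (grey bars). The grey bars of miR-24-3p minus miR-23a-3p, miR-23b-3p and miR-27b-3p stay to the right of 0, and those of the 7 other pairs cross it.

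Of 24 miRNAs known to act in endothelium or angiogenesis, 15 were detected in both strains, 4 only in C57BL/6 and 5 in neither. Detected in both strains were 9.37% of all 1900 miRNAs, and 47 of the 118 other miRNAs of early accession. The ratios of the 15 relative to the shared miRNAs had a median of -0.59 and ran from -1.39 for miR-378a-3p to 0.47 for miR-296-5p, and 14 were below 0. This share was close to that of the 47 shared miRNAs of early accession, of which 43 were below 0 with a median of -0.71. More than 2-fold below were 2 of the 15, against 21.3% of all shared miRNAs and 15 of the 47 of early accession. miR-126a-3p, an abundant miRNA of endothelium, read 177 and 133 and lay at -0.59, and its opposite arm miR-126a-5p read 121 and 116 and lay at -1.24.

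The EV pools also held miRNAs of blood cells and muscle. Spots for 3 of 3 erythrocyte, 4 of 4 platelet, 2 of 5 leukocyte, 3 of 4 muscle and 1 of 3 liver miRNAs were detected on both arrays, with median relative ratios of -0.53, -0.69, 0.00, -1.48 and -1.48 in turn. On the whole array, 9.37% of 1900 miRNAs were detected in both strains, and 47 of the 118 of early accession. The leukocyte value is the midpoint of miR-142a-5p at -0.45 and miR-150-5p at 0.45. The liver value is miR-192-5p alone, which read 111.4 in BALB/c, just above the threshold of 110.5. The platelet list also holds miR-126a-3p. The erythrocyte miRNA miR-451a read 4180 in C57BL/6 and 1602.7 in BALB/c, while the liver miRNA miR-122-5p read 108 and 109 and was above the threshold only in C57BL/6. Signals after subtraction of the BLANK mean were also summed over all spots of each list. These sums include spots that were not detected, and spots below the BLANK mean lower them. They were 4321 in C57BL/6 and 1593 in BALB/c for the erythrocyte spots, 463 and 184 for platelets, 187 and 40.5 for leukocytes, 371 and 277 for muscle and 24.6 and 18.1 for liver. The part of these cell types in the values of the miR-23, miR-27 and miR-24 clusters was not tested.

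The direction of the strain ratio depended on how the arrays were scaled. The place of miR-24-3p above the miR-23 forms cannot change with a factor common to a whole array. The plot of the ratios by setting shows the 5 miRNAs moving as a block between the settings that multiply a whole array by 1 factor. In each of the 10 settings the ratio of miR-24-3p was higher than those of miR-23a-3p and miR-23b-3p, and that of miR-23a-3p higher than that of miR-23b-3p. Of these settings, 6 differ only by such a factor and 2 by a factor and the detection threshold or background, so that only the local background and the normexp correction bear on the order in their own way.

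**Figure D4:**
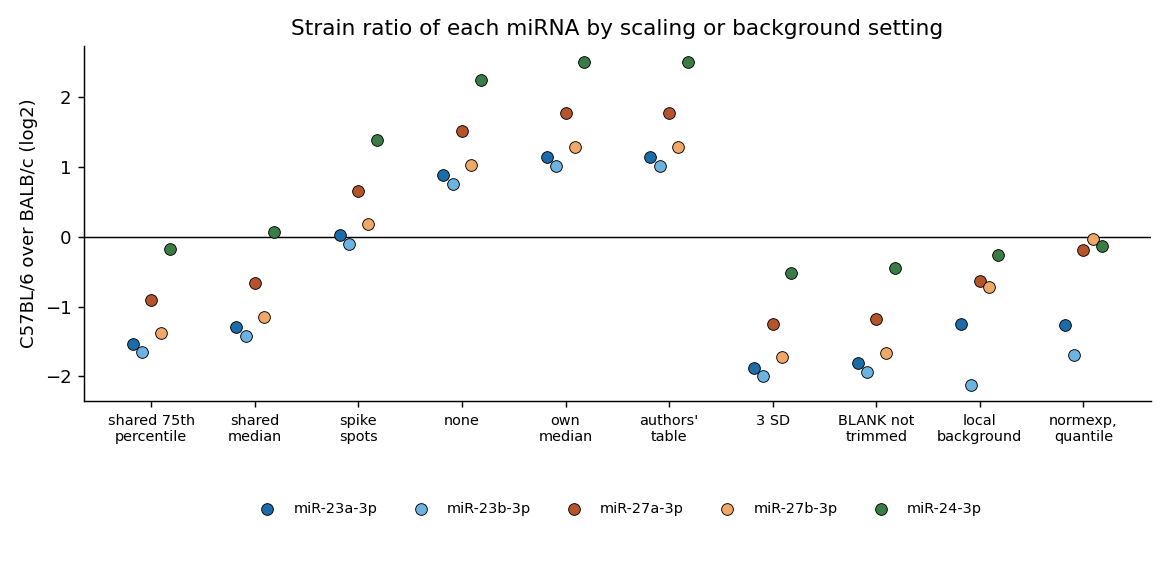
log2 ratio of C57BL/6 to BALB/c (y axis) for each of the 5 miRNAs under the 10 settings of scaling, detection or background correction (x axis). All 5 lie below 0 on the shared 75th percentile (-1.66 to -0.17), as do 58.4% of the 178 shared miRNAs. The 5 lie above 0 in the authors' table (1.02 to 2.50), and in every setting shown miR-24-3p lies above both miR-23 forms. Only the local background and the normexp correction bear on that order in their own way.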

How the data were processed

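The deposited scanner files hold raw Cy5 intensity medians of 3200 spots and, beside each, of the area around it, which the authors had neither subtracted nor normalized. The authors' table holds 1 intensity per detected miRNA. By comparison with the scanner files, it is the spot minus the trimmed BLANK mean, times 1.26 for C57BL/6 and 1.06 for BALB/c, which sets the median of each array's detected miRNAs to 25. How the table was made, and the probe sequences, are not given in the sources used here. The labels name cells and another RNA kit than the paper's methods.

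Of 896 BLANK spots, 45 at each end were left out. The mean of the other 806, 98.3 (SD 3.62) for C57BL/6 and 102 (SD 4.02) for BALB/c, was subtracted. Detection was above the mean plus 2 SD. The arrays were scaled on the 75th percentile of the shared miRNAs. The values printed relative to the shared miRNAs do not depend on this scaling. Ranges move each signal by 2 SD to its worst side at once. They are no confidence intervals. Precision is limited by having 1 array a strain. The main steps, from BLANK subtraction to the relative ratios, were tested on simulated arrays for bright miRNAs only. The signals tested were further above the BLANK noise than that of miR-27b-3p in BALB/c. The ranges, the local background and the normexp correction were not simulated.

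The names allowed were the 5 miRNAs, the opposite arms, miRNAs with the same seed, the 3 nearest ratios for each miRNA, and the angiogenesis and cell type lists. These members and lists were chosen with earlier results of these data known. miR-3074, the miRNAs of high BALB/c signal, the group of early accessions and 2 of the 10 pairs were added after the values were seen. Alternatives were detection at 3 SD, untrimmed BLANK spots, the authors' table, 4 other scalings, local background, and normexp (offset 50, with the local background) followed by quantile normalization. Tools were R 4.3.3 with limma 3.58.1, and Python 3.11.15 with matplotlib 3.10.9, numpy 2.4.6 and pandas 2.3.3.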

Additional observations from a re-analysis of the deposited data

How the results depend on the processing

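With 1 array per strain no array could be left out, and dim spots limit the ranges most, above all for miR-27b-3p. No paired analysis was possible because each strain has 1 array. All 5 miRNAs were detected on both arrays at 3 SD, with untrimmed BLANK spots and in the authors' table. Of 133 values recomputed, 73 stayed within the spot noise, 36 moved beyond it and 24 changed sign. Part of the 73 could not change: the authors' table and detection at 3 SD leave the pair differences as they were. The 133 also include counts of miRNAs, to which spot noise does not apply. The cause of the changes was not tested, beyond the fact that scaling multiplies all ratios of an array by 1 factor.

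The log2 ratios of miR-23a-3p, miR-23b-3p, miR-24-3p, miR-27a-3p and miR-27b-3p, in this order, were 1.14, 1.02, 2.50, 1.77 and 1.29 both in the authors' table and with each array scaled to the median of its own detected spots. They were 0.88, 0.76, 2.24, 1.51 and 1.03 without scaling, and 0.028, -0.10, 1.39, 0.66 and 0.18 on the spike controls. On the median of the shared miRNAs, miR-23a-3p was at -1.30, miR-23b-3p at -1.42 and miR-24-3p at 0.067. These 3 were at -1.87, -1.998 and -0.51 with detection at 3 SD, and at -1.81, -1.93 and -0.45 with untrimmed BLANK spots. With the local background subtracted, miR-23a-3p was at -1.24, miR-23b-3p at -2.12 and miR-27b-3p at -0.72. With normexp and quantile normalization, miR-23a-3p was at -1.26, miR-27a-3p at -0.18 and miR-27b-3p at -0.032.

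Relative to the shared miRNAs, the median of the 5 was -0.075 with the local background and -0.17 with normexp. More than 2-fold below was 1 miRNA in place of 2 with the local background, where miR-23a-3p was at -0.60. Of the 164 shared miRNAs in that setting, 20.7% were. With detection at 3 SD it was 3 of the 5, against 23.6% of 140 shared miRNAs. With normexp it was 2, against 4.49% of 178. miR-27a-3p changed sign to 0.0088 with the local background, and miR-24-3p to -0.12 with normexp. Of the pairs, the local background gave 0.88 for miR-23a-3p minus miR-23b-3p, -1.49 for miR-23b-3p minus miR-27a-3p, -1.41 for miR-23b-3p minus miR-27b-3p, and 0.99 and 1.86 for miR-24-3p minus miR-23a-3p and minus miR-23b-3p. Normexp gave 0.44 for miR-23a-3p minus miR-23b-3p, -1.23 for miR-23a-3p minus miR-27b-3p, -1.51 and -1.67 for miR-23b-3p minus miR-27a-3p and minus miR-27b-3p, and 0.048 for miR-24-3p minus miR-27a-3p. It turned miR-24-3p minus miR-27b-3p to -0.10 and miR-27a-3p minus miR-27b-3p to -0.15.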
